A study of Mus musculus with 4 samples.

Results

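The cells described here were 157 barcodes of mouse salivary gland, chosen because each held at least 2 UMIs of the genes of the CD3 complex, summed over *Cd3e*, *Cd3d* and *Cd3g*. They also had to hold at most 2 UMIs of the macrophage complement genes *C1qa*, *C1qb* and *C1qc*, and *Mucl2*, the main transcript of the serous acinar cells, had to make up under 30% of their UMIs. A UMI (unique molecular identifier) tags 1 captured RNA molecule, so a UMI count is a number of molecules. The 157 members were 1.00% of the 15707 barcodes (exact binomial 95% interval 0.850 to 1.17). Levels of the CD3, C1q and *Mucl2* genes chose the cells and are given as a description only.

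The scRNA-seq covered submandibular and sublingual glands of wild-type female C57BL/6N mice aged 6 to 8 weeks, in their physiological state and with no treatment. The series lists 4 samples in 1 group. According to its labels they came from 2 mice, and the study's methods give another number. Glands of these animals were digested with collagenases, hyaluronidase, dispase and pancreatin before the droplet 3' libraries were made, and the protocol names no sort or enrichment of immune cells. The matrix carries 1 barcode suffix for all cells, so that the sample, mouse and gland of a cell were not known, the matrix counted as 1 sample, and no test was run. Intervals below are 95% intervals that cover counting error only.

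T cells recognise antigen through a receptor made either of an alpha and a beta chain or of a gamma and a delta chain, held at the surface by the CD3 chains that carry the signal inward. Most alpha-beta T cells also carry the coreceptor CD8, typical of killer cells, or CD4, typical of helper cells. NK cells and the related ILC1 of glands and other tissues lack this receptor, and many of their activating receptors signal through the adapter proteins encoded by *Tyrobp* (DAP12) and *Fcer1g* (the Fc receptor gamma chain). Salivary glands are known for resident lymphocytes of both kinds.

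The members were checked against the 4 marker genes set for T cells. *Cd3g* was detected in 141 of 157 (89.8%), *Cd3d* in 78 of 157 (49.7%) and *Cd3e* in 45 of 157 (28.7%). *Trbc2*, the constant segment of the beta chain and the only marker that the rule did not use, was detected in 81 of 157 (51.6%). The shares of cells with a *Trbc2* UMI were 18.4% of 250 NK and ILC1-like cells, 0.411% of 974 C1q macrophages and 1.21% of 6682 acinar barcodes. At the same time, 95 members or 60.5% held at least 5 UMIs of *Tyrobp* and *Fcer1g*, and 72 of the 157 had been chosen on *Cd3g* alone. The name T cells therefore did not describe all of them equally, and they are called Cd3-positive cells below.

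The promoters of the 3 genes that chose the cells are printed here, with that of *Fcer1g*, 1 of the 2 adapter genes whose UMIs divided the cells. Each is the 250 bases before the RefSeq start on GRCm38.p6, read 5′ to 3′ along the strand of the gene. Capitals mark the letters CACCTG, an E-box of the kind bound by E proteins, and AGGAAG, a core bound by ETS factors, in either direction. The 3 motifs searched were chosen after the letters had been seen, and no match of TGTGGT, a RUNX core, was found in these windows.
Cd3g: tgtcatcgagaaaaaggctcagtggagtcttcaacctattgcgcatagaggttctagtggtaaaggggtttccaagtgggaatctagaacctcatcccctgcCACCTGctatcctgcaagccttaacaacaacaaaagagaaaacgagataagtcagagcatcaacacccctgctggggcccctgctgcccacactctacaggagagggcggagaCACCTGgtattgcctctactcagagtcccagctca
Cd3d: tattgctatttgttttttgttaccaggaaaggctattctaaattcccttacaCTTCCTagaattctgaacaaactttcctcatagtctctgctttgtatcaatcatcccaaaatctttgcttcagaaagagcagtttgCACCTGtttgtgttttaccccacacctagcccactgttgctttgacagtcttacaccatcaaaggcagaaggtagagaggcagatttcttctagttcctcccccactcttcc
Cd3e: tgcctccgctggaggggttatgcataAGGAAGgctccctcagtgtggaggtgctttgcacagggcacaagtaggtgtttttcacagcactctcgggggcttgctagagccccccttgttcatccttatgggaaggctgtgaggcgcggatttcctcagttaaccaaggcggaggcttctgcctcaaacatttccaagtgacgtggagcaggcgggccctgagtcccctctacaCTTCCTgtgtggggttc
Fcer1g: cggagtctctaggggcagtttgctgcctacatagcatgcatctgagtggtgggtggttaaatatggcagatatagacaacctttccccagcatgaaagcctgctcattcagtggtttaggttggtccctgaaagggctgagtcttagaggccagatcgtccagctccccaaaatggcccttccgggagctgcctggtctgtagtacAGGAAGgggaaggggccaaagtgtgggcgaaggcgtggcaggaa

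The *Cd3g* window, chr9:44980432-44980681 on the minus strand, held 2 E-boxes, which began 148 and 35 bases before the start. The *Cd3d* window, chr9:44981536-44981785 on the plus strand, held 1 E-box at 112 bases and 1 ETS core at 198 bases. In GENCODE M21, *Cd3g* (chromosome 9, 44969572 to 44980431) and *Cd3d* (44981786 to 44987339) lie back to back and are transcribed away from each other, with 1354 bases between them. The *Cd3e* window, chr9:45009612-45009861 on the minus strand, held 2 ETS cores at 224 and 17 bases, and the *Fcer1g* window, chr1:171234350-171234599 on the minus strand, held 1 at 44 bases. Of 32851 mouse promoters of this length, 17.2% held the E-box, 29.5% the ETS core and 14.0% the RUNX core, and none of the matches overlapped another motif. A match is a description of the letters only.

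The members were shallow cells. Their median was 2131 UMIs, with a range from 1380 to 35283, and 765 genes. The NK and ILC1-like cells, which were chosen as Cd3-free cells with at least 2 UMIs of *Ncr1* and *Klrb1c*, had a median of 1963 UMIs, the C1q macrophages 2212 and the acinar barcodes 3644. At the limit of the rule, 70 members held exactly 2 Cd3 UMIs, and 114 barcodes with 1 Cd3 UMI fell just outside it. *Trac*, the constant segment of the alpha chain, was detected in 8 of the first and in 5 of the second. Another 3 barcodes stayed outside for 14 to 66 C1q UMIs and 10 for 31.4 to 56.0% of *Mucl2*.

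The members were then divided by their UMIs of the adapter genes.

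**Figure D1:**
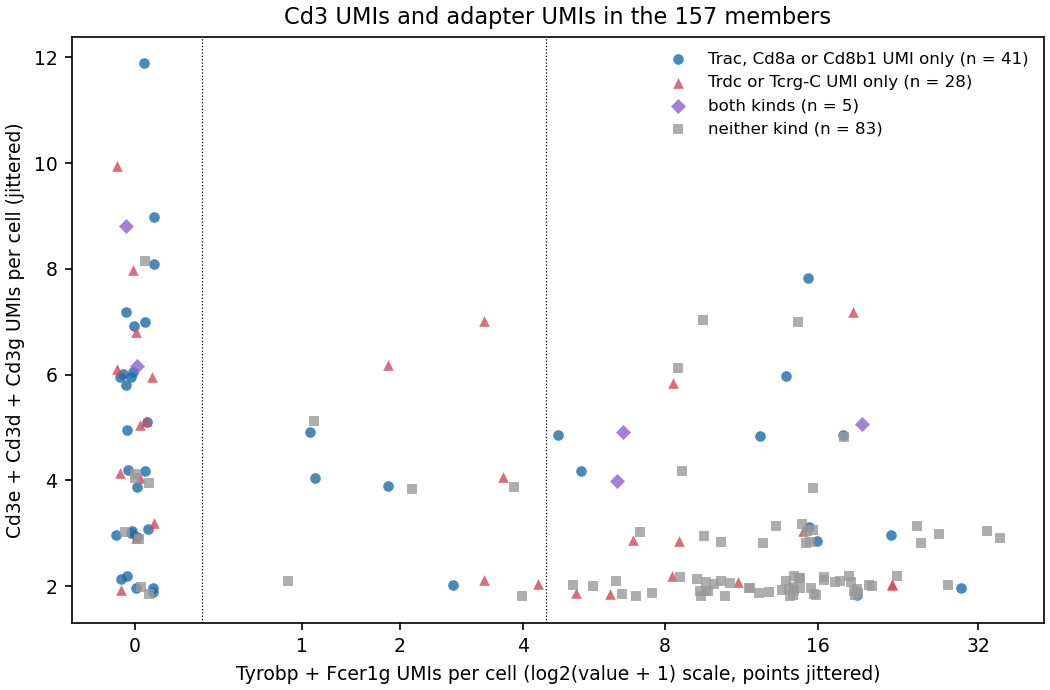
UMIs of *Cd3e*, *Cd3d* and *Cd3g* (y axis) against UMIs of *Tyrobp* and *Fcer1g* (x axis, log2 of the count plus 1) in each of the 157 members, coloured by whether receptor genes of the alpha chain or Cd8, of the gamma and delta chains, both or neither were detected. At 0 adapter UMIs stand 48 members, with a median of 4 Cd3 UMIs, and at 5 or more stand 95, with a median of 2.

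No UMI of *Tyrobp* or *Fcer1g* was found in 48 members (30.6%), 14 held 1 to 4 and 95 held 5 or more. Among those 95 the median was 15 and the maximum 37. The division was made after these values had been seen. Of the 250 NK and ILC1-like cells, 242 held 5 or more adapter UMIs and none was free of them, and of the 974 macrophages 917 held 5 or more. Adapter UMIs were present in 25.6% of the acinar barcodes too, at a higher median depth. The 48 adapter-negative members had a median of 1817 UMIs per cell and the 95 adapter-rich members 2361.

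The CD3 genes, which code for the signalling chains of the receptor, chose the cells and are described without a test. All 3 chains were detected in 19 of the 48 adapter-negative members, 2 in 25 and 1 in 4. Among the 95 adapter-rich members these counts were 8, 17 and 70, and in 67 of the 70 the only chain was *Cd3g*. Exactly 2 Cd3 UMIs, the minimum, were held by 57 of the 95 and by 8 of the 48. In 46 of the 95 these 2 UMIs were both of *Cd3g*.

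**Figure D2:**
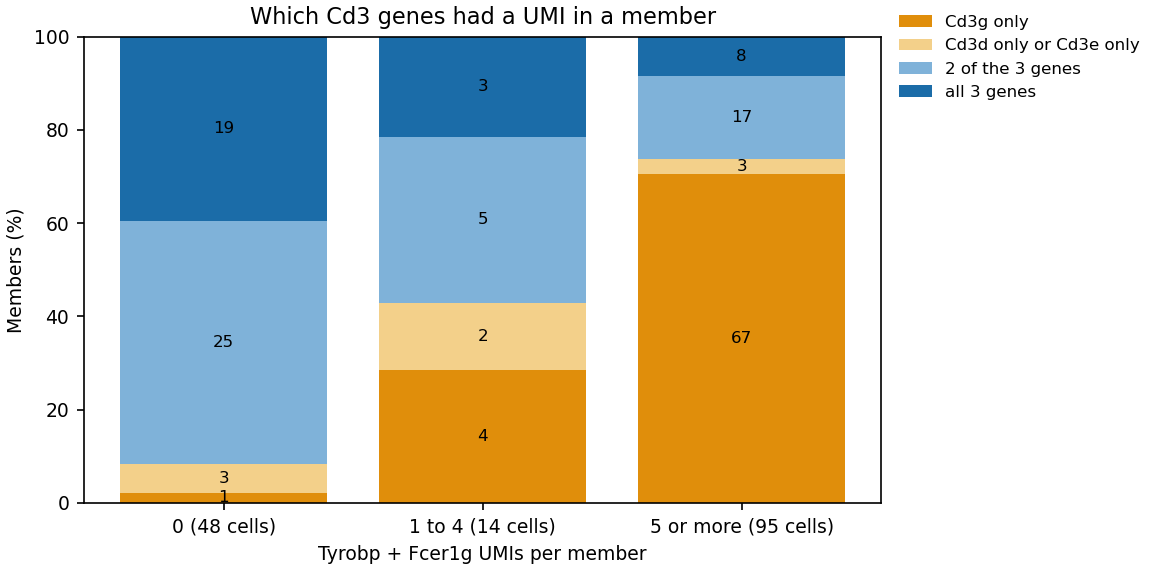
Share of members (y axis, percent) with 1, 2 or 3 of the CD3 genes detected, with single-gene cells divided into *Cd3g* only and another gene only, for members with no, 1 to 4, and 5 or more UMIs of *Tyrobp* and *Fcer1g* (x axis). *Cd3g* was the only chain in 1 of 48, 4 of 14 and 67 of 95 members.

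When the NK rule was applied without its limit on Cd3, it held 293 cells, 22 of them members and 21 with 1 Cd3 UMI, just outside the rule. Of the 293, 38 (13.0%) had a *Cd3g* UMI, 9 (3.07%) a *Cd3d* UMI and 3 (1.02%) a *Cd3e* UMI. In the last 400 bases of their transcripts *Cd3d* and *Cd3g* shared no stretch of 90 bases.

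The receptor genes came next, since the rule did not use them. *Trac* was detected in 23 of 48 (47.9%) adapter-negative and 12 of 95 (12.6%) adapter-rich members. With every cell thinned to 1000 UMIs the shares were 25.0% and 4.21%, in the same order. Its summed level was 3.57 (2.51 to 4.92) and 0.526 (0.301 to 0.855) UMIs per 10000, with 0.0944 (0.0346 to 0.205) in the NK and ILC1-like cells. *Trbc2* stood at 9.26 (7.50 to 11.3), 3.06 (2.47 to 3.75) and 1.26 (0.998 to 1.57) in the same order, and so followed *Trac*. *Trbc1*, the other beta segment, stood at 5.60 (4.25 to 7.23), 2.34 (1.82 to 2.95) and 2.55 (2.17 to 2.97), and was detected in 114 of 250 (45.6%) NK and ILC1-like cells. *Trbc1* thus did not set the adapter-rich members apart from the Cd3-free cells. The 2 beta segments shared 16.7% of the 90-base stretches in their last 400 bases, so that reads from that part cannot be assigned to one of them.

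A gamma or delta segment was detected in 33 members (21.0%), 14 of them adapter-negative and 14 adapter-rich, beside *Trac* in 38 members (24.2%). In NK and ILC1-like cells 24 of 250 (9.60%) had such a segment. *Trdc*, the delta constant segment, had 51 UMIs in 20 members, with 32 of them in 9 adapter-negative cells and 12 in 9 adapter-rich cells. The NK and ILC1-like cells held 18 *Trdc* UMIs in 16 cells. The gamma segment *Tcrg-C1* had 21 UMIs in 11 of the 48 adapter-negative cells and 1 in all NK and ILC1-like cells. *Tcrg-C4*, by contrast, was found in 9 members and 8 NK and ILC1-like cells. *Cd247*, the zeta chain that also serves NK receptors, had 19 UMIs in 19 members and 7 in 7 NK and ILC1-like cells.

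Any constant segment of either receptor was detected in 119 members (75.8%). This share was 46 of 48 in adapter-negative cells, 62 of 95 (65.3%) in adapter-rich cells, 157 of 250 (62.8%) in NK and ILC1-like cells, 2.36% in macrophages and 3.85% in acinar barcodes. The macrophages and acinar barcodes should lack these segments, and their shares are given as the background. Within the 95 adapter-rich members, the 28 with a *Cd3d* or *Cd3e* UMI were set beside the 67 with *Cd3g* alone. *Trac* was detected in 10 of the 28 (35.7%) and in 2 of the 67 (2.99%), *Trbc2* in 19 (67.9%) and 17 (25.4%), and a gamma or delta segment in 10 (35.7%) and 4 (5.97%). *Ncr1* or *Klrb1c* was detected in 10 of the 28 (35.7%) and in 38 of the 67 (56.7%), and *Gzmb* in 10 (35.7%) and 45 (67.2%). *Xcl1*, in contrast, was detected in 25 (89.3%) and 60 (89.6%), so its shares lay side by side.

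Variable segments, which make each receptor different, were nearly invisible in 3' libraries. Of 176 variable genes in the matrix only 6 had a UMI in the members, with 21 UMIs in all. *Trdv4*, a delta variable gene, held 13 of these in 6 members.

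The coreceptors divided the members sharply. *Cd8a* or *Cd8b1*, the chains of the CD8 coreceptor, was detected in 28 members (17.8%), of which 11 had both, 10 *Cd8a* only and 7 *Cd8b1* only. Of these 28 cells, 24 were adapter-negative, 20 had a *Trac* UMI and 3 had a UMI of a gamma or delta segment. *Cd8b1* stood at 3.57 (2.51 to 4.92) UMIs per 10000 in adapter-negative members, with 1 UMI in the adapter-rich members and 0 in the NK and ILC1-like cells. *Cd8a* stood at 3.38 (2.35 to 4.70) in the first, with 3 UMIs in 3 of the second and 0 in the third. With 3 counts put in for the NK and ILC1-like cells, *Cd8a* was 17.9-fold and *Cd8b1* 17.4-fold higher over all members. The lower limits of their log2 ratios were 3.79 and 3.75. *Cd4* had 1 UMI in the 157 members, in a cell with 24.9% mitochondrial UMIs. No helper cell could thus be described, while 128 members had a UMI of neither coreceptor, and *Foxp3*, the factor of regulatory T cells, was at 0. At the median depth of these cells a 0 in 1 cell does not show that the gene was off.

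Compared with the NK and ILC1-like cells over 4779 genes with at least 20 UMIs in both groups together, 3.16% were at least 2 times higher in the members (151 genes) and 5.63% lower (269 genes). Of 9 genes of the receptor and CD3 list that were measured, 8 were higher by this limit, with a median log2 ratio of 3.73 against -0.13 for all genes. The Cd3 genes among them were fixed by the choice of both groups. Among 5 T cell surface genes 3 were higher, and among 10 signalling genes only *Lat*. Among 10 NK receptor genes 5 were lower, with *Ncr1* and *Klrb1c* fixed by the choice of the NK cells, and the 4 MHC class II genes were lower as well. Of the latter, *Cd74* had 18 UMIs in 13 members and 140 in 15 NK and ILC1-like cells, with 74 of these in 1 cell. In this and the following comparisons the lists had been chosen with results of these data known.

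When the macrophages were taken as the comparison, 17.6% of 7717 genes were at least 2 times higher in the members and 14.7% lower. All 8 measured receptor and CD3 genes, 8 of 9 signalling genes, 5 of 5 surface genes and 7 of 7 cytotoxic genes were higher, with the Cd3 genes fixed by the choice of both groups. Among the 12 largest ratios were *Trbc2* (log2 7.47), *Gzmb* (6.08), *Gzmc* (5.72), *Ltb* (5.41), *Cd7* (5.41), *Ms4a4b* (5.36), *Ctsw* (5.30) and *Ptprcap* (5.24), all of them genes of lymphocytes. In the other direction stood *Cd74*, the invariant chain of antigen presentation, with a log2 ratio of -9.27 (-10.03 to -8.61), and the chemokine gene *Cxcl2*, with 2 UMIs in 2 members against 17574 in 819 macrophages and a log2 ratio of -10.52 (-13.57 to -8.67).

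The members were also compared among themselves. Between the adapter-negative and the adapter-rich members, 7.42% of 2117 genes were at least 2 times higher in the first and 11.9% lower. Of 8 measured genes of the receptor and CD3 list 7 were higher, with a median log2 ratio of 2.64 against -0.02 for all genes, and 4 of 5 surface genes were higher. Of 7 cytotoxic genes 4 were lower, as were 5 of 6 proliferation genes. The latter rested on few cells. In adapter-negative members *Birc5* and *Mki67* were each found in 1 cell, and 1 cell held 10 of 18 *Stmn1* UMIs. At least 3 proliferation genes were detected in 4.17% (0.509 to 14.3) of adapter-negative and 9.47% (4.42 to 17.2) of adapter-rich members, with overlapping intervals. Of 8 NK receptor genes 6 were lower, but *Tyrobp* and *Fcer1g* are among them and made the division, and the other 4 were *Klrb1c*, *Klrd1*, *Klre1* and *Ncr1*. The Cd3 genes chose the members, and *Cd3d* and *Cd3e* are among the 7 of the receptor and CD3 list.

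**Figure D3:**
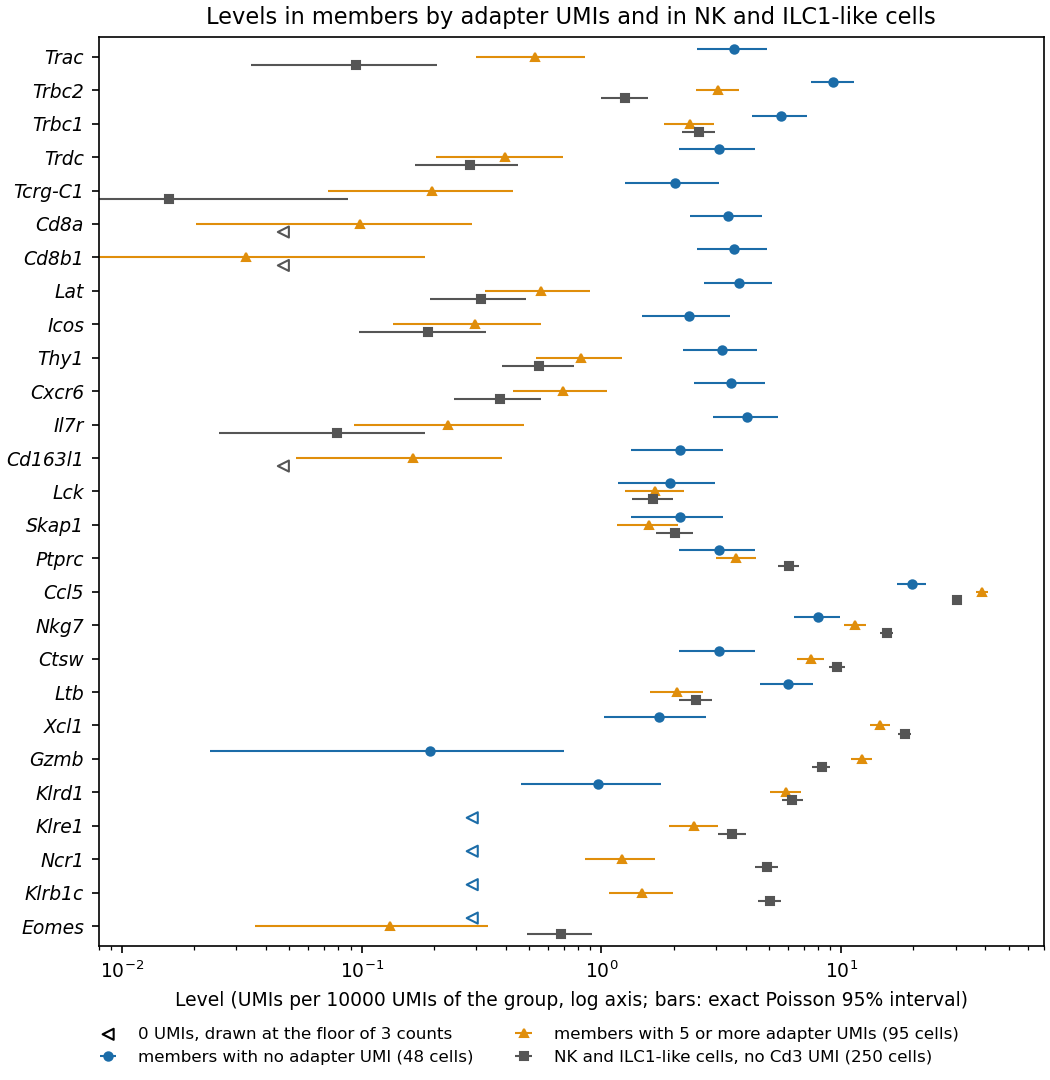
Levels of 27 genes in UMIs per 10000 (x axis, logarithmic) in 48 adapter-negative members, 95 adapter-rich members and 250 NK and ILC1-like cells, with exact Poisson 95% intervals and open triangles at the limit of 3 counts where no UMI was found. Receptor, Cd8 and *Il7r* levels stood highest in adapter-negative members, whereas *Gzmb*, *Xcl1* and *Klrd1* stood within 2-fold of each other in the other 2 groups.

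The adapter-rich members were then set against the NK and ILC1-like cells, where 2.69% of 4312 genes were at least 2 times higher and 6.08% lower. Of 6 measured receptor and CD3 genes 4 were higher, namely *Cd3d*, *Cd3g*, *Trac* and *Trbc2*, the first 2 by choice. None of 8 signalling, 5 surface, 7 cytotoxic and 6 cytokine genes passed the limit in either direction. Other lists held genes past it. The 4 MHC class II genes, *Eomes*, *Id3*, *Klf2*, *Ccr2*, *Cdk1* and *Col1a2* were lower. *Ikzf2*, *Mki67*, *Krt7* and 5 of 11 secretory genes were higher. *Klrb1c*, *Klrc2* and *Ncr1* were lower, 2 of them by the choice of the NK cells. The adapter-negative members, compared with the same cells over 3609 genes, had 6.79% of genes higher and 15.9% lower, with all 8 receptor and CD3 genes higher and 9 of 10 NK receptor genes lower. The choice of the cells fixed the 3 Cd3 genes among the 8, and *Tyrobp*, *Fcer1g*, *Ncr1* and *Klrb1c* among the 9. These comparisons share the NK and ILC1-like cells.

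Of 8 measured genes of receptor signalling, *Lat* alone differed by at least 2 times between adapter-negative and adapter-rich members. *Lck*, the kinase that starts the signal, stood at 1.93 (1.18 to 2.98) UMIs per 10000 in adapter-negative members, 1.68 (1.25 to 2.21) in adapter-rich members and 1.64 (1.34 to 1.98) in NK and ILC1-like cells, so that the intervals overlapped widely. *Lat*, the scaffold of the T cell receptor signal, stood at 3.76 (2.68 to 5.14), 0.559 (0.326 to 0.896) and 0.315 (0.192 to 0.486), with a log2 ratio of 2.75 (1.89 to 3.66) between the first 2 groups. *Zap70*, the kinase that binds the CD3 chains, stood at 0.965, 0.691 and 0.676. *Skap1* and *Ptprc* (CD45) stood at 2.12 and 3.09 in adapter-negative members and at 1.58 and 3.65 in adapter-rich members. *Themis*, which acts in thymic selection, and *Cd5*, which dampens receptor signals, were each found in 4 members, all of them adapter-negative.

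Surface genes of T cells followed the receptor. *Thy1* stood at 3.18 (2.19 to 4.47) in adapter-negative members, 0.823 (0.532 to 1.21) in adapter-rich members and 0.550 (0.383 to 0.766) in NK and ILC1-like cells. The costimulatory receptor *Icos* was detected in 17 of 48, 6 of 95 and 11 of 250 cells, at levels of 2.32, 0.296 and 0.189. *Cd28*, which gives the second signal for activation, stood at 1.64 and 0.263 in the first 2 groups, with a log2 ratio of 2.64 (1.35 to 4.06). *Cd2*, an adhesion receptor of T and NK cells alike, stood at 1.93, 1.02 and 1.59, within a factor of 2.

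Among lineage factors, *Bcl11b*, which holds cells to the T lineage, was detected in 12 of 48 adapter-negative, 3 of 95 adapter-rich and 2 of 250 NK and ILC1-like cells. *Tcf7* was found in 6 members, 5 of them adapter-negative. *Eomes*, a T-box factor of NK and memory cells, had no UMI in the adapter-negative members, 4 in the adapter-rich members and 43 in 35 NK and ILC1-like cells, and over all members its log2 ratio to those cells was -2.97 (-4.91 to -1.51). *Tbx21* (T-bet), the related factor, stood at 0.428 (0.228 to 0.732) in adapter-rich members and 0.613 (0.436 to 0.838) in NK and ILC1-like cells, with 1 UMI in adapter-negative members. Against the Cd3-free cells the adapter-rich members had a log2 ratio of -2.36 (-4.30 to -0.90) for *Eomes*, past the 2-fold limit, and of -0.52 (-1.55 to 0.42) for *Tbx21*, short of it. *Id2*, needed by innate lymphoid cells, stood at 0.965, 2.37 and 2.94 in the 3 groups, whereas *Ets1* stood at 2.89, 0.888 and 1.54.

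Genes of circulating cells were scarce. *Ccr7*, which guides cells to lymph nodes, had no UMI in the members, while *S1pr1*, which lets cells leave tissue, had 7 UMIs in 6 members and *Klf2* 27 in 14. Of the *S1pr1* UMIs 6 were in 5 adapter-negative members, at 0.579 UMIs per 10000 against 0.0472 in NK and ILC1-like cells. *Klf2* stood at 0.772 and 0.834 in the same groups. *Il7r*, the survival receptor of long-lived T cells, stood at 4.05 (2.92 to 5.48) in adapter-negative members, 0.230 (0.0926 to 0.475) in adapter-rich members and 0.0786 (0.0255 to 0.184) in NK and ILC1-like cells. It was among the 12 largest ratios of adapter-negative to adapter-rich members, at a log2 ratio of 4.14 (2.97 to 5.54). Of the genes of tissue residence, *Cxcr6* was detected in 22 of 48 adapter-negative and 15 of 95 adapter-rich members, at 3.47 (2.43 to 4.81) and 0.691 (0.428 to 1.06). *Cd69*, which keeps cells from leaving, stood at 1.64 and 0.658. *Itgae* (CD103), which binds epithelial E-cadherin, showed the other direction, with 1 UMI in adapter-negative members and 21 in 16 adapter-rich members. *Rgs1*, a regulator of G protein signals, had that direction too, at 3.18 (2.19 to 4.47) and 7.27 (6.35 to 8.30). *Itga1* was detected in 3 and 18 members, but 17 of its 20 adapter-negative UMIs were from 1 cell.

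Cytotoxic genes were carried by both kinds of member, in different make-up. *Ccl5*, a chemokine of killer lymphocytes, was detected in 23 of 48 (47.9%) adapter-negative and 86 of 95 (90.5%) adapter-rich members, against 12.3% of macrophages and 12.7% of acinar barcodes. *Nkg7*, a granule membrane gene, stood at 8.01 (6.38 to 9.93), 11.5 (10.3 to 12.7) and, in NK and ILC1-like cells, 15.5 (14.5 to 16.5). Both genes were therefore present on either side. *Gzmb*, the granzyme that starts cell death in the target, had 2 UMIs in 1 adapter-negative member and 371 in 55 adapter-rich members. Its levels were 0.193 (0.0234 to 0.697), 12.2 (11.0 to 13.5) and, in NK and ILC1-like cells, 8.29 (7.60 to 9.03), and the log2 ratio of the first 2 was -5.98 (-9.03 to -4.12). *Gzmc* had no UMI in the adapter-negative members and 630 in 58 adapter-rich members. With 3 counts put in for the first it was 71.6-fold lower there, and the upper limit of its log2 ratio was -5.86.

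The other granzymes were less evenly spread. *Gzma* had no UMI in adapter-negative members and 206 in 12 of 95 adapter-rich ones. With 3 counts put in for the first it was 23.4-fold lower there, and the upper limit of its log2 ratio was -4.24. In NK and ILC1-like cells it had 320 UMIs in 42 cells, so that in both groups a minority of cells held the transcript. *Gzmk*, by contrast, had 6 UMIs in 3 adapter-negative members, none in adapter-rich members and 1 in NK and ILC1-like cells. *Prf1*, the pore-forming partner of the granzymes, stood at 0.0965 (0.00244 to 0.538), 0.790 (0.506 to 1.18) and 1.51 (1.22 to 1.84), and over all members it was the only cytotoxic gene of 7 to pass the 2-fold limit against NK and ILC1-like cells, and it was higher in the latter.

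Receptors of NK cells separated the members in the same way. *Ncr1* or *Klrb1c* was detected in 51 members (32.5%), of which none was among the 48 adapter-negative cells and 48 were among the 95 adapter-rich cells (50.5%). None of the 28 Cd8 cells had either. *Klrd1* (CD94) stood at 0.965 (0.463 to 1.77), 5.89 (5.06 to 6.82) and, in NK and ILC1-like cells, 6.26 (5.66 to 6.91). *Klre1* had no UMI in adapter-negative members and stood at 2.44 (1.91 to 3.06) in adapter-rich members. *Cd7*, a surface gene of early and innate lymphocytes, was detected in 4 of 48 and 81 of 95 members and in 186 of 250 NK and ILC1-like cells. *Klrc1* was the exception, at 1.06 (0.530 to 1.90) in adapter-negative and 0.428 (0.228 to 0.732) in adapter-rich members. It shared 30.6% of the 90-base stretches of its last 400 bases with *Klrc2*, so the counts of that pair are uncertain.

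Cytokines followed the division as well. *Xcl1*, which attracts cross-presenting dendritic cells, stood at 1.74 (1.03 to 2.74) in adapter-negative members, 14.6 (13.3 to 16.0) in adapter-rich members and 18.4 (17.3 to 19.5) in NK and ILC1-like cells, and was detected in 10 of 48, 85 of 95 and 217 of 250 cells. *Ccl4*, a chemokine that draws other lymphocytes and macrophages, stood at 0.772 in the first and 11.3 in the last of these, with a log2 ratio of -3.96 (-5.18 to -2.96) between the kinds of member. *Ltb*, a lymphotoxin that shapes lymphoid tissue, and *Ifng*, the cytokine that activates macrophages, had the other direction. *Ltb* stood at 5.98 (4.59 to 7.67) and 2.07 (1.59 to 2.65), and *Ifng* at 1.35 (0.738 to 2.27) and 0.461 (0.252 to 0.773). *Il2rb*, the shared receptor chain for interleukins 2 and 15, stood at 0.868, 4.11 and 4.75. *Il4*, *Il5*, *Il13* and *Il10* were at 0 in all members.

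Chemokine receptors and checkpoint genes were low. *Cxcr3*, which guides type 1 effector cells, was detected in 12 of 48 adapter-negative members and stood at 1.45 there, 0.197 in adapter-rich members and 0.142 in NK and ILC1-like cells. *Pdcd1* (PD-1) had 9 UMIs in all members, 8 of them in 6 adapter-negative cells, and *Tigit* and *Havcr2* were at 0. At these depths a level of 0 in the adapter-negative members allows up to 0.289 UMIs per 10000.

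The 48 adapter-negative members, which had higher levels of the receptor genes than the adapter-rich members, were looked at cell by cell. By the detected genes, 26 had *Trac* or Cd8 and no gamma or delta segment, 12 had a gamma or delta segment and neither *Trac* nor Cd8, 2 had both and 8 had neither. The 12 are called gamma-delta cells below, a name that rests on the detected segments only. *Trdc* was detected in 9 of the 12, and the remaining cells were placed there by *Tcrg-C1* alone. In 1 of these cells that was 1 *Tcrg-C1* UMI, beside 5 UMIs of *Trbc2*. Of the 12 cells 9 also had a UMI of a beta segment, with *Trbc2* in 7 and *Trbc1* in 4. Of the 26 cells 25 had one. This division was also made after the values had been seen.

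**Figure D4:**
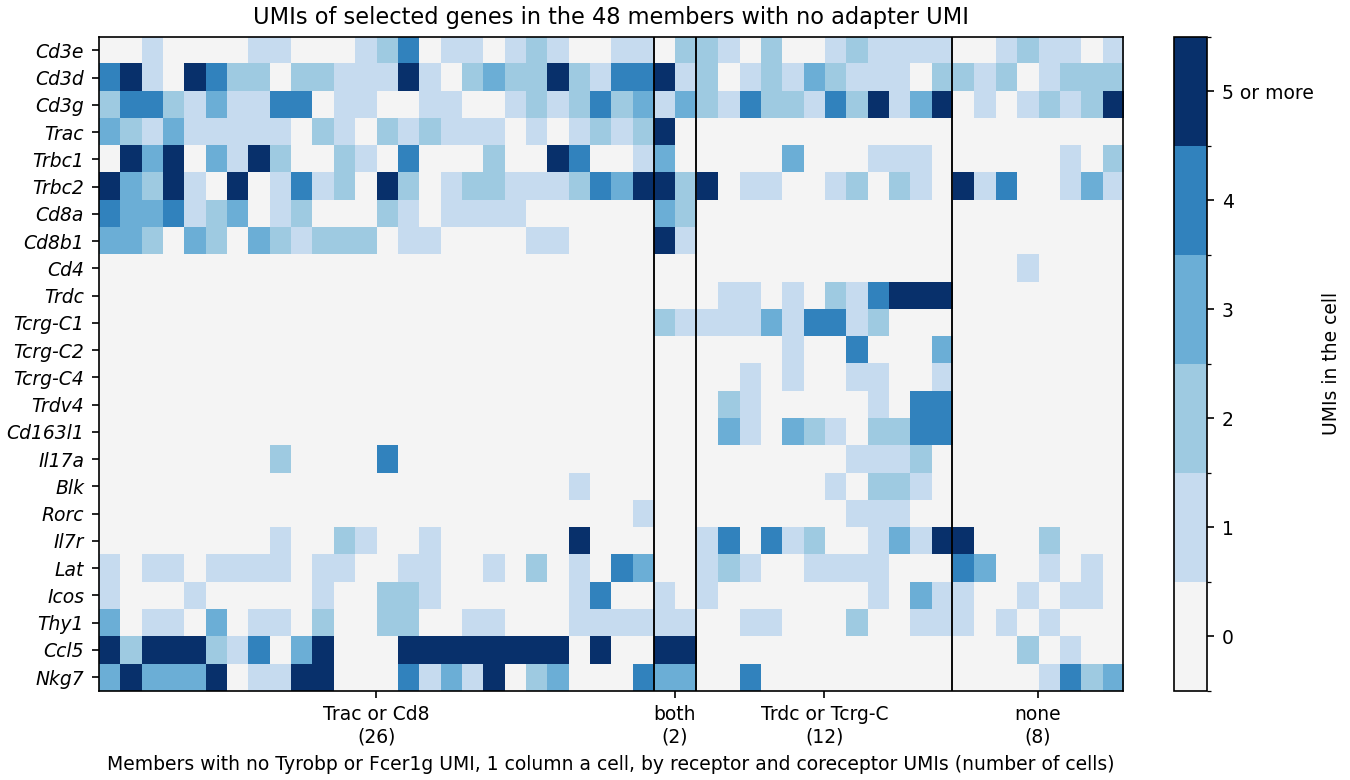
UMIs of selected genes (rows) in each of the 48 adapter-negative members (columns), ordered into 26 cells with *Trac* or Cd8, 2 with both kinds, 12 with gamma or delta segments and 8 with neither. *Ccl5* was found in 19 of the 26 first cells and in none of the 12, and *Il7r* in 5 and 9 of them.

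Among the 26 cells, *Trac* was detected in 22, *Cd8a* in 15 and *Cd8b1* in 15. Cd3 UMIs ran from 2 to 12 with a median of 4.5 in them, and from 2 to 10 with a median of 5 in the 12 gamma-delta cells, so that the genes that chose the members had similar medians.

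Effector genes were compared between them. *Ccl5* ran from 0 to 24 UMIs with a median of 5 in the 26 cells, 19 of which had at least 1, whereas none of the 12 gamma-delta cells had a *Ccl5* UMI. The summed levels were 27.6 (23.5 to 32.1) and 0, and 3 counts would be 1.31 in the latter. *Nkg7* was detected in 18 of the 26 cells and 1 of the 12, and *Xcl1* in 8 and 0. Of the other cytotoxic genes, *Ctsw* was detected in 12 of the 26 cells, *Gzmk* in 3, *Gzmb* in 1 and *Prf1* in 1, and *Gzma* had no UMI in them.

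The gamma-delta cells carried genes of the type 17 program, in which T cells make interleukin 17. *Cd163l1*, a scavenger receptor gene known from gamma-delta T cells, had 27 UMIs in 11 members, 22 of them in 9 adapter-negative cells, and each of these 9 had a UMI of a gamma or delta segment. It had no UMI in 250 NK and ILC1-like cells. With 3 counts put in for those cells it was 12.4-fold higher over all members, and the lower limit of its log2 ratio was 3.23. *Il17a* had 11 UMIs in 6 adapter-negative cells, 4 with a gamma or delta UMI and 2 with *Trac* or Cd8. The latter 2 cells held 4 and 2 of these UMIs, and the other 4 cells held 1 or 2 each. *Il17a* was thus not particular to the gamma-delta cells. *Blk*, a kinase of B cells and gamma-delta T cells, was detected in 5 adapter-negative cells, 4 of them with such a UMI. At least 1 gene of the type 17 list was detected in 12 of the 14 adapter-negative cells with a gamma or delta UMI (85.7%) and in 6 of the other 34 (17.6%), beside 4.80% of NK and ILC1-like cells. The list share was 14.9% in macrophages, so single UMIs of it are not particular to lymphocytes.

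Other genes of these 12 cells were *Il7r*, which ran from 0 to 6 UMIs with a median of 1 and was detected in 9, and *Ltb* and *Cxcr6*, detected in 9 and 10. *Il7r* was detected in 5 of the 26 *Trac* and Cd8 cells. Its summed levels were 10.1 (6.37 to 15.1) in the 12 cells and 1.67 (0.802 to 3.07) in the 26. The highest cell held 6 UMIs in the former and 5 in the latter, and the intervals do not cover such spread between cells. *Trdv4* was detected in 5 of the 12. Whether these cells came from 1 mouse or from 1 gland could not be seen.

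Cell cycle and stress genes were also counted. At least 3 of the 10 proliferation genes were detected in 13 members (8.28%), 2 of them adapter-negative and 9 adapter-rich, beside 16 NK and ILC1-like cells (6.40%). Immediate early genes, which digestion of tissue can raise, stood at 14.3 for *Junb* and 8.51 for *Fos* in the members and at 16.1 and 7.82 in the NK and ILC1-like cells, and none of 13 stress genes passed the 2-fold limit between them.

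Transcripts of other cells were present in the members. The 11 listed secretory genes of acinar cells made up 22.4% of all their UMIs, 15.2% in adapter-negative and 19.9% in adapter-rich members, and 15.3% in NK and ILC1-like cells. A few cells weighed on this sum, because the median member had 10.3% and the median NK and ILC1-like cell 9.89%. At least 2 epithelial genes were detected in 19 members (12.1%), 5 of them adapter-negative and 10 adapter-rich, against 30 of 250 NK and ILC1-like cells and 8.83% of macrophages. In 1 adapter-rich cell alone *Smgc* had 608 of the 1206 UMIs that all members held. The part of free RNA or of droplets with more than 1 cell in these values was not tested.

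Macrophage genes were nearly absent. The 10 genes of that list had 8 UMIs in 7 members, with *Adgre1*, *Csf1r*, *Fcgr1*, *Mrc1* and *C1qc* at 0, a summed level of 0.173 UMIs per 10000 beside 164 in the macrophages. The list holds C1q genes, which the rule limited. Of B cell genes, *Cd79a*, *Ms4a1*, *Pax5*, *Jchain* and *Mzb1* were at 0, while *Ighm* had 39 UMIs in 36 members, none of which was adapter-negative and 33 of which were adapter-rich. *Ighm* was also detected in 59 of 250 NK and ILC1-like cells and in 27.6% of macrophages. *Cd79b* had 2 UMIs in 2 members, both adapter-negative, and *Ighd* had 1 UMI.

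A single cell decided the values of several other genes. Among adapter-negative members, 1 cell held all UMIs of the endothelial genes *Kdr*, *Cdh5* and *Emcn*, 8 of them of *Kdr*. All 22 UMIs of *Acta2*, 24 of 25 of *Rgs5*, 21 of 22 of *Flt1* and 33 of 40 of *Fabp4* were likewise from 1 cell for each gene. These genes of vessel walls are therefore not described as genes of the members. The shares of genes past the 2-fold limit given above still include such genes, among them *Acta2* and *Rgs5*.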

How the data were processed

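The authors deposited 1 matrix of raw UMI counts, not normalized, from 10x Genomics 3' libraries of 4 samples. The submitters' processing notes name Cell Ranger 6.0.1, Seurat 4.1.1 and mm10. All 15707 barcodes were used, and the matrix had 32285 features. Members and gene lists (27 lists, 214 genes) were chosen with earlier results of these data known.

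UMIs were summed per group and given per 10000 with exact Poisson intervals. Shares have Clopper-Pearson intervals and log2 ratios exact conditional binomial ones, all at 95%. Genes with at least 20 UMIs in both groups together were compared at a 2-fold limit. Shares were also computed with cells thinned to 1000 UMIs (seed 1). The planned gene rule named list genes and the 12 largest ratios in each direction (100 UMIs for macrophages), of which some are printed. Members of the adapter and receptor divisions, and genes led by 1 cell, were chosen after seeing values. No doublet caller was run. Computation used matplotlib 3.10.9, pandas 2.3.3, scipy 1.17.1 and numpy 2.4.6 under Python 3.11.15, and the method was tested on simulated data. Alternatives changed the rule, the filter and the scaling.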

Additional observations from a re-analysis of the deposited data

How the results depend on the processing

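Of 85 alternative values, 65 stayed close to the reported one and 20 moved. The share of barcodes chosen, 1.00%, became 1.73% with at least 1 Cd3 UMI, 0.554% with at least 3, 0.815% with *Mucl2* under 15%, 0.758% without cells that lacked a receptor segment, and 0.446% in cells thinned to 1000 UMIs. The share with *Trac*, *Trbc1* or *Trbc2*, 71.3%, became 60.9% with at least 1 Cd3 UMI, 82.8% with at least 3, 94.1% without cells that lacked a receptor segment and 55.4% when thinned. The Cd8 share, 17.8%, became 10.7% and 26.4% with at least 1 and 3 Cd3 UMIs, the *Ncr1* or *Klrb1c* share fell from 32.5% to 19.7% when thinned, and the adapter-negative share rose from 30.6% to 46.0% with at least 3 Cd3 UMIs and to 38.7% without cells that lacked a receptor segment. Genes past 2-fold against NK and ILC1-like cells numbered 420 of 4779 compared, and 667 of 3961 with at least 3 Cd3 UMIs. They numbered 4534 of 13206 with a minimum of 1 UMI and 94 of 2191 with a minimum of 50. Against macrophages they numbered 2487 of 7717, then 7180 of 14769 and 1391 of 4669 with these minimums. At a minimum of 1 UMI, 3 counts stood in for a 0, which can reverse the direction of a gene. *Cd4*, with 1 UMI in the members and 0 in NK and ILC1-like cells, then counted as lower in the members. The 4534 and 7180 are therefore not numbers of genes that differed 2-fold. Between adapter-rich members and NK and ILC1-like cells 378 of 4312 became 249 of 3155 when cells with at least 2 epithelial genes were left out. They were left out of both groups, an alternative added after seeing the data. With secretory genes taken out of the scaling, 198 of 4768 genes were higher and 219 lower than in NK and ILC1-like cells, against 151 and 269 of 4779. A comparison of Cd8 with *Cd4* cells was not run, since 1 cell had a *Cd4* UMI. Leaving out replicates could not be done in a pooled matrix. No paired analysis was possible because the barcodes do not show which sample a cell came from.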
